A study of Mus musculus with 11 samples.

Results

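The genes described here are the 5 uroplakin genes Upk1a, Upk1b, Upk2, Upk3a and Upk3b, the 3 fibrinogen chain genes Fga, Fgb and Fgg, and the mucosal glycoprotein genes Dmbt1 and Muc1, which together make 10 of the 27179 genes counted. They were listed by symbol, selected on measured levels in luminal against basal libraries, because Upk3a, Fgb and Dmbt1 stood among the genes most restricted to luminal cells in these same libraries. Their luminal levels against their basal levels are therefore given as a description with no test. The comparison of terminal end buds (TEBs) with ducts did not enter the choice and was tested.

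The mammary glands came from C57BL/6 female mice aged 5 weeks, in puberty, that expressed E-cadherin-GFP, and every group carried this reporter. TEBs, the growing tips of the ductal tree, and the ducts behind them were micro-dissected, and CD29+CD24+ cells depleted of the Ter119, CD31 and CD45 lineages were sorted as luminal (E-cadherin-GFP high) or basal (E-cadherin-GFP low). This gave 4 groups, with 3 libraries of basal cells from ducts, 3 of basal cells from TEBs, 2 of luminal cells from ducts and 3 of luminal cells from TEBs. Each library pooled at least 2 mice, and the luminal sort did not separate progenitor from mature luminal cells.

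Uroplakins are membrane proteins known from the apical plaques of the bladder urothelium, where Upk1a pairs with Upk2 and the related tetraspanin Upk1b pairs with Upk3a. Fibrinogen, the soluble precursor of the fibrin clot, is assembled from alpha, beta and gamma chains encoded by Fga, Fgb and Fgg, and is made mainly by hepatocytes as an acute phase protein. Dmbt1 is a large secreted glycoprotein of mucosal surfaces built from scavenger receptor repeats, and Muc1 is a transmembrane mucin of the apical surface of glandular epithelia, including that of the mammary gland.

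Library totals ran from 27989137 to 49221436 counts. Mitochondrial genes took 4.34% to 17.8% of the counts in 9 of the 11 libraries, 28.5% in luminal duct replicate 3 and 37.5% in basal TEB replicate 1. Calls between TEBs and ducts that changed without these libraries are given beside each test. The cell labels fitted their markers: 12 luminal markers summed to 14144 to 20527 CPM (counts per 1000000, scaled by trimmed mean of M values) in luminal libraries and 571 to 871 in basal libraries, and 8 basal markers summed to 5671 to 20419 in basal libraries and 15.5 to 271 in luminal ones. Within luminal cells the basal markers stood at 99 and 271 CPM in ducts and at 15.5 to 28.6 CPM in TEBs. Fibroblast markers, of cells that the sort should remove, summed to 6.01 CPM in luminal duct replicate 1 and 203 in replicate 3, to 10 to 43.8 in luminal TEBs and to 209 to 764 in basal libraries, and their part in the results was not tested. In these bulk libraries, fewer cells of a type and less RNA per cell cannot be told apart.

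Of the 10 genes, 8 passed the filter on low counts (edgeR's filterByExpr) and were tested among 17370 genes, while Upk3b and Fga did not. The label luminal held for Upk2, Upk3a, Fgb, Fgg, Dmbt1 and Muc1, each higher in every luminal library than in any basal library. It did not hold for the other 4 genes, since Upk1b was basal, Upk1a was low in every library, Upk3b had no count and Fga was near 0.

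**Figure D1:**
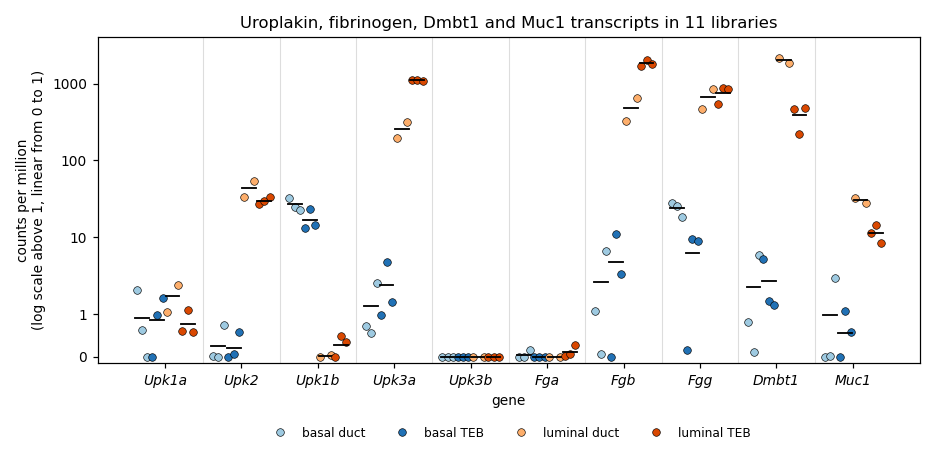
The vertical axis gives CPM of each gene, on a log scale above 1 and a linear scale from 0 to 1, with a point for each of the 11 libraries coloured by group and a line at each group mean. Upk3a, Fgb, Fgg and Dmbt1 lie above 100 CPM in every luminal library, Upk1b lies above 10 CPM in every basal library, and Upk3b lies at 0 throughout.

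Upk3a (Entrez Gene 22270, GRCm38 chr15:85017141-85022560) was the most abundant uroplakin transcript per kilobase in luminal cells. It measured 196 and 312 CPM in the luminal duct libraries and 1104, 1107 and 1093 CPM in the luminal TEB libraries, against 0.718, 0.553 and 2.51 CPM in basal ducts and 0.981, 4.8 and 1.43 CPM in basal TEBs. The luminal TEB libraries lay above both luminal duct libraries, with no overlap, and every luminal library lay far above every basal one. The share of all genes that separate in this way between the structures was not counted, here or below. Per kilobase of transcript, Upk3a stood at place 35 of all 27179 genes in luminal TEBs and at place 273 in luminal ducts.

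The partner gene of Upk3a in the bladder, Upk1b (Entrez Gene 22268, chr16:38773182-38800203), showed the opposite distribution. Basal duct libraries held 32.5, 25 and 22.7 CPM and basal TEB libraries 13.3, 23.3 and 14.5 CPM. In luminal ducts the raw counts were 0 and 1, and in luminal TEBs they were 0, 26 and 18. Each basal library thus lay above every luminal library, and the basal groups overlapped each other. In ducts the basal libraries held 3465 counts in all and the luminal libraries 1.

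Upk2 (Entrez Gene 22269, chr9:44452715-44454767) was luminal at a lower level. It measured 33.4 and 54.2 CPM in luminal ducts and 27.1, 29.7 and 33.4 CPM in luminal TEBs, while no basal library exceeded 0.744 CPM. The luminal groups met at 33.4 CPM. Its bladder partner Upk1a (Entrez Gene 109637, chr7:30603092-30612734), a tetraspanin, never exceeded 2.39 CPM and was at 0 in basal duct replicate 3 and basal TEB replicate 1. Its 4 groups overlapped, with means of 0.902, 0.871, 1.73 and 0.769 CPM in basal ducts, basal TEBs, luminal ducts and luminal TEBs. Upk3b (Entrez Gene 100647, chr5:136038496-136044993), a relative of Upk3a, had 0 counts in all 11 libraries. A count of 0 allows up to 3 counts, which is 0.0572 CPM in the deepest library and 0.173 CPM in the shallowest, for counting error only.

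As a description of the contrast used for the choice, the fitted log2 difference of luminal over basal cells was 7.66 in ducts and 8.77 in TEBs for Upk3a, and 7.44 and 6.99 for Upk2. Upk1a differed by 0.93 in ducts and -0.19 in TEBs. The value for Upk1b was -5.89 in TEBs, a 59.4-fold higher level in basal cells. In neither sorted population were both genes of a bladder pair high: luminal cells held Upk3a and Upk2 transcripts with little Upk1b or Upk1a, and basal cells held Upk1b with little Upk3a.

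The 3 fibrinogen genes lie side by side on chromosome 3 within 42.1 kb, in the order Fgg (Entrez Gene 99571, chr3:83007724-83015056), Fga (Entrez Gene 14161, chr3:83026153-83033627) and Fgb (Entrez Gene 110135, chr3:83042246-83049863). None of the 10 genes overlapped another counted gene. The promoters of the fibrinogen genes are shown because the 3 chains share a locus and a protein but differed in transcript level, and that of Upk3a because it was the most abundant uroplakin, a choice made after its values were seen. Each sequence is the RefSeq promoter of build GRCm38.p6, from 250 bases before to 50 bases after the gene's start, written in the direction of transcription. Capitals mark matches, on either strand, to 8 searched motifs, and no match overlapped another.
Fgg, plus strand, chr3:83007474-83007773: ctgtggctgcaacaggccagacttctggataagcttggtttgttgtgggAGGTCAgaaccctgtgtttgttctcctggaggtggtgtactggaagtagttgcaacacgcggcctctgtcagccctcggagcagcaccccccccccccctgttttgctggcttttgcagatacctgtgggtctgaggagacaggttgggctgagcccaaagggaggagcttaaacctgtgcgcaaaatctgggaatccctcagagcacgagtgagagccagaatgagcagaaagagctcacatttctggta
Fga, plus strand, chr3:83025903-83026202: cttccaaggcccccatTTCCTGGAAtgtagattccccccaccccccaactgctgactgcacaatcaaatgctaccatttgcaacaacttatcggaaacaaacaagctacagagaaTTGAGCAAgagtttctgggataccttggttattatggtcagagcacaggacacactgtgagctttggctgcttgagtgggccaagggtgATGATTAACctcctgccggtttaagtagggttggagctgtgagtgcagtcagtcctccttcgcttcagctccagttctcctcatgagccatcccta
Fgb, minus strand, chr3:83049814-83050113: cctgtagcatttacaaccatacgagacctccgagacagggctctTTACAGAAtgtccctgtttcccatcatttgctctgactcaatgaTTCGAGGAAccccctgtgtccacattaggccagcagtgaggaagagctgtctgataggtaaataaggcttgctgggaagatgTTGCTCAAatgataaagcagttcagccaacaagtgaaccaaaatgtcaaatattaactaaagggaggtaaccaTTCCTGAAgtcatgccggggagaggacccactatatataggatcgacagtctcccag
Upk3a, plus strand, chr15:85016891-85017190: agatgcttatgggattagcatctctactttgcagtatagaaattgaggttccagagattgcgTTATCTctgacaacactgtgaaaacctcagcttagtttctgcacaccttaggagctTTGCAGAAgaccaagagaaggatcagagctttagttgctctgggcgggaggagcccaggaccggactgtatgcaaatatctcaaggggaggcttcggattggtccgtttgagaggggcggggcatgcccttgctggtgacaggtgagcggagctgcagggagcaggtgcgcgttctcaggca

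Promoters were held for 7 of the 10 genes, namely the 4 above, Muc1, Upk1a and Upk3b, and each motif was counted in all 32851 promoters of the table. The motif of STAT factors, TTCNNNGAA, was in the Fga and Fgb promoters and in 8.3% of all promoters. That of C/EBP factors, TTNNGNAA, was in those of Fga, Fgb, Upk3a and Upk3b and in 40.7% of all. The start of the HNF1 site, searched as GTTAATNAT, was found in Fga alone among the 7 and in 0.801% of all promoters. The core site of nuclear receptors, AGGTCA, was in the promoters of Fgg and Upk3b and in 16.3% of all promoters. The motif of GATA factors, AGATAA, occurred in that of Upk3a and in 11.2% of all promoters. In the promoter of Muc1 stood both the TATA box, TATAAA, found in 13.6% of all promoters, and the grainyhead motif, ACCNGTT, found in 8.13% of them. The Upk1a promoter matched none of the motifs, and the forkhead motif, TGTTTAC (3.65% of all promoters), was in none of the 7. These matches are descriptions of the letters and no binding was measured.

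Fgb, the beta chain, measured 325 and 639 CPM in luminal ducts and 1676, 2030 and 1775 CPM in luminal TEBs. The luminal TEB libraries all exceeded the luminal duct libraries. Basal libraries ran from 0 to 11.2 CPM, with the 0 in basal TEB replicate 1. Per kilobase Fgb stood at place 25 of 27179 genes in luminal TEBs.

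Fgg, the gamma chain, measured 467 and 860 CPM in luminal ducts and 548, 868 and 856 CPM in luminal TEBs. Unlike those of Fgb, its luminal TEB and duct libraries overlapped. In basal cells Fgg measured 27.6, 25.8 and 18.1 CPM in ducts and 0.173, 9.39 and 8.93 CPM in TEBs. The basal duct libraries all lay above the basal TEB libraries.

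Fga, the alpha chain without which no complete fibrinogen molecule forms, had 0 counts in 7 of the 11 libraries. The others were basal duct replicate 3 with 6 counts and the luminal TEB libraries with 1, 3 and 14 counts, of which the highest was 0.27 CPM. Per kilobase, the luminal TEB means were 1160 for Fgb, 497 for Fgg and 0.0345 CPM per kilobase for Fga. The alpha chain was thus near the limit of detection in the same libraries that held the beta and gamma chains among their most abundant transcripts.

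**Figure D2:**
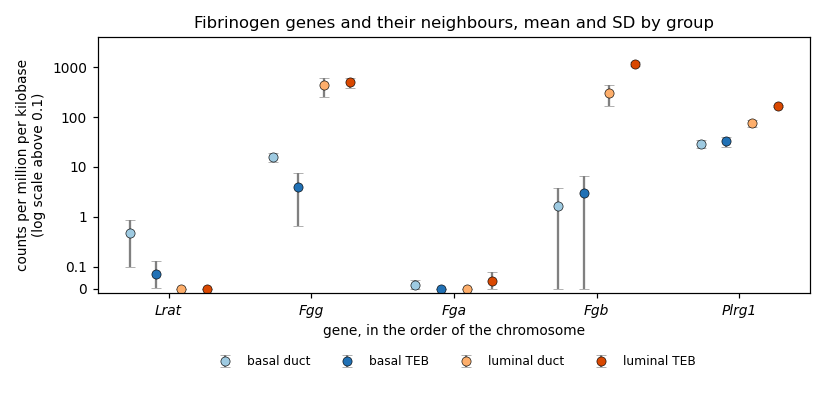
Mean CPM per kilobase of transcript (log scale above 0.1, error bars SD, cut at 0) are plotted by group for the 3 fibrinogen genes and the nearest tested gene on each side, in chromosomal order. Fga lies near 0 between Fgg and Fgb, which reach 497 and 1160 in luminal TEBs.

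The genes on either side of the locus had profiles of their own. Lrat, 103750 bases before Fgg and encoding an enzyme of retinol esterification, had 0 counts in all luminal libraries and 2.53 ± 2.01 CPM (SD, n = 3) in basal ducts. Plrg1, 5675 bases beyond Fgb and encoding a component of the spliceosome, was detected in every group, at 134 ± 20 CPM (SD, n = 2) in luminal ducts and 300 ± 12.7 CPM (SD, n = 3) in luminal TEBs. Plrg1 rose in luminal TEBs over ducts with a log2 fold change of 1.16 (SE 0.23, FDR = 0.0317 by edgeR's quasi-likelihood test). That call was lost, with an FDR of 0.0506 to 0.128, without basal duct replicate 3 or any 1 of the 5 luminal libraries.

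Hepatocyte markers were at or near 0 in the libraries that held the fibrinogen transcripts. The 9 markers listed summed to at most 3.02 CPM in any library and 3 of them reached 1 CPM in a library. Alb was at 0 in both duct groups and in basal TEBs, Apoa1, Apoa2, Hnf4a and Cyp2e1 were at 0 in luminal ducts, and Ttr and Serpina1a were at 0 in both luminal groups. For the uroplakins, 6 urothelial genes outside the list (Krt20, Psca, Gsdmc, Snx31, Cyp1a1 and Shh) summed to at most 5.6 CPM, with Shh at 0 in every group. Platelet markers summed to 4.1 to 17.7 CPM, highest in basal ducts, with Ppbp at 0 in every group.

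Dmbt1 (Entrez Gene 12945, chr7:131032057-131121628) measured 2165 and 1859 CPM in luminal ducts. In luminal TEBs it measured 461, 223 and 478 CPM, so that both duct libraries lay above all TEB libraries. Basal libraries held 0.105 to 5.82 CPM. The fitted log2 difference of luminal over basal cells was 9.81 in ducts and 7.26 in TEBs, the former the largest luminal excess among the 10 genes.

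Muc1 (Entrez Gene 17829, chr3:89229056-89233381) had the same direction at a lower level. It measured 32.4 and 28.3 CPM in luminal ducts and 11.3, 14.3 and 8.4 CPM in luminal TEBs. Both duct libraries again lay above all TEB libraries. Basal libraries held 0 to 2.92 CPM, and the luminal over basal difference was 4.95 in ducts and 4.26 in TEBs on the log2 scale.

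Levels of different genes were compared per kilobase of transcript. In luminal ducts the order of the means was Fgg (436 CPM per kilobase), Dmbt1 (322), Fgb (306), Upk3a (230), Upk2 (50.1), Muc1 (13.6) and Upk1a (1.32). Fgg, Dmbt1 and Fgb were not in the same order in both duct libraries, whereas each later step in that order was. In luminal TEBs the order was Fgb (1160 CPM per kilobase), Upk3a (996), Fgg (497), Dmbt1 (62), Upk2 (34.4), Muc1 (5.07) and Upk1a (0.588). Each of these genes exceeded the next in all 3 TEB libraries. In basal ducts Fgg (15.7) and Upk1b (15.1) led with no fixed order between them, and in basal TEBs Upk1b (9.63) led.

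Ratios within a library do not depend on the scaling between libraries. Fgb over Fgg, per kilobase, was 0.673 and 0.718 in luminal ducts and 2.96, 2.26 and 2.01 in luminal TEBs. The more abundant fibrinogen chain was thus Fgg in both luminal duct libraries and Fgb in all luminal TEB libraries. Upk3a over Upk2 was 4.65 and 4.55 in luminal ducts and 32.1, 29.4 and 25.8 in luminal TEBs. Dmbt1 over Upk3a was 1.95 and 1.06 in luminal ducts and 0.074, 0.0356 and 0.0774 in luminal TEBs, so the leading transcript of the pair differed between the structures. No ratio overlapped between the structures, and with 2 libraries against 3 none was tested. The pairs were not fixed beforehand, the ratios restate the levels given above, and the share of other gene pairs that separate was not counted.

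**Figure D3:**
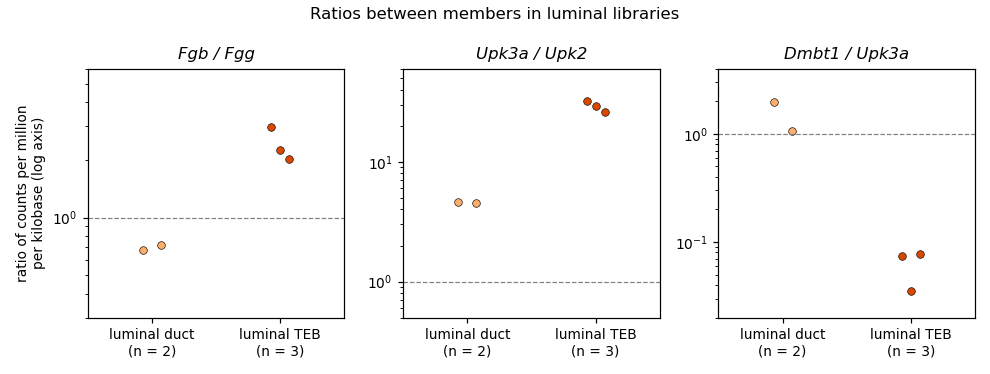
Ratios of CPM per kilobase (log axes, each panel with its own range) between Fgb and Fgg, Upk3a and Upk2, and Dmbt1 and Upk3a are plotted for each luminal library, with a dashed line at a ratio of 1. Fgb over Fgg lies below 1 in both duct libraries and above 1 in the 3 TEB libraries, and Dmbt1 over Upk3a does the reverse.

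The test of luminal TEBs against luminal ducts asked whether the genes changed between the growing tip and the duct behind it. By edgeR's quasi-likelihood test over all 11 libraries, none of the 8 tested genes passed an FDR of 0.05, while 0.639% of all genes tested were called higher and 0.771% lower in luminal TEBs. At an unadjusted p below 0.05 there were 3 of the 8 (Upk1b, Upk3a and Dmbt1), and the share of all genes below that p was not counted. The likelihood ratio test called 2 (Upk1b and Upk3a), DESeq2 called none with 2 below an unadjusted p of 0.05 (Upk1b and Upk3a), and limma voom called 3 (Upk3a, Fgb and Dmbt1). For Upk1b, with 1 count in all in luminal ducts and 44 in luminal TEBs, no fold change is given, and its calls rest on these few counts.

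The mean of Upk3a was 254 ± 81.8 CPM (SD, n = 2) in luminal ducts and 1101 ± 7.34 CPM (SD, n = 3) in luminal TEBs, a log2 fold change of 2.12 (SE 0.64, FDR = 0.126), and values for the next genes follow in the same order. Fgb had 482 ± 222 and 1827 ± 183 CPM, a log2 fold change of 1.92 (SE 1.26, FDR = 0.459). Fgg had 664 ± 278 and 757 ± 181 CPM and a log2 fold change of 0.19 (SE 0.75, FDR = 0.939). Dmbt1 had 2012 ± 216 and 387 ± 143 CPM, a log2 fold change of -2.38 (SE 0.91, FDR = 0.217), and Muc1 had 30.3 ± 2.94 and 11.3 ± 2.93 CPM, a log2 fold change of -1.42 (SE 1.53, FDR = 0.677). Upk2 (43.8 ± 14.7 and 30.1 ± 3.15 CPM) and Upk1a had log2 fold changes of -0.54 and -1.16, with an FDR of 0.849 and 0.815. The median over all genes tested was 0.042.

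Markers of other cells also differed between the same luminal libraries. The sum of 6 luminal progenitor markers was 745 and 862 CPM in the duct libraries and 389, 478 and 376 CPM in the TEB libraries, with no overlap, and none of the 6 was at 0 in either group. The sum of 6 mature luminal markers was 6677 and 3511 CPM in ducts and 4775, 3180 and 3482 CPM in TEBs, which overlapped. Among them Esr1 was lower in ducts (66.3 and 59 CPM) than in TEBs (108, 125 and 122 CPM). Piezo2 was higher in ducts (320 and 247 CPM) than in TEBs (224, 173 and 185 CPM), while Pgr, Areg, Tspan13 and Prlr overlapped. The basal markers, given above, were also higher in both duct libraries than in any TEB library. The part of these markers in the differences of the 8 genes was not tested.

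The call for 4 of these genes depended on which libraries were fitted. When the 5 luminal libraries were fitted alone, the fold changes stayed close (2.09 for Upk3a, 1.90 for Fgb, -2.39 for Dmbt1 and -1.44 for Muc1, log2) while the SEs were 0.246, 0.331, 0.36 and 0.267. The FDR was then 0.0282, 0.0437, 0.035 and 0.0481 by the same edgeR test. Leaving out either luminal duct library from the fit of all libraries gave no call to any of the 8 genes. Without the libraries highest in mitochondrial counts, luminal duct replicate 3 and basal TEB replicate 1, the log2 fold changes were 2.50 for Upk3a, 2.50 for Fgb, 0.71 for Fgg and -2.47 for Dmbt1, and none of the 8 genes was called.

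**Figure D4:**
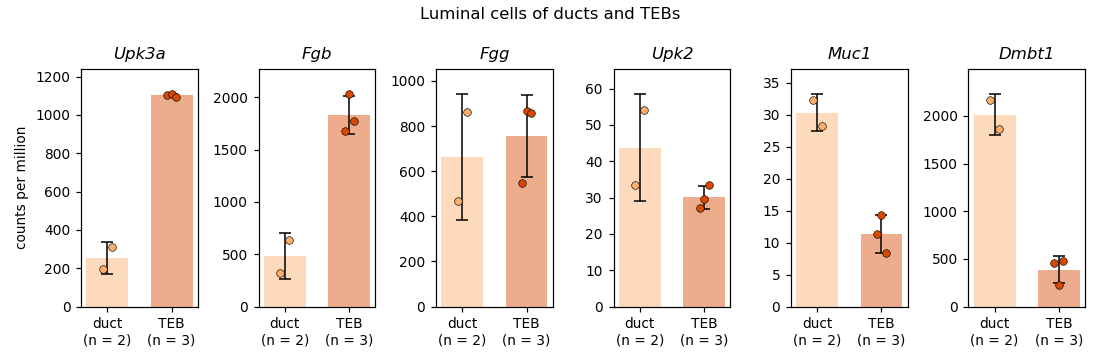
Bars show the mean CPM in luminal cells of ducts (n = 2) and TEBs (n = 3), with error bars of SD and a point per library; each panel has its own axis from 0. Points of the 2 structures do not overlap for Upk3a, Fgb, Muc1 and Dmbt1, and meet or overlap for Fgg and Upk2. The share of all genes whose points separate in this way was not counted.

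In basal cells the same 8 genes were tested between TEBs and ducts. None passed by edgeR's quasi-likelihood test, beside 0.167% of all genes called higher and 1.16% called lower in basal TEBs. Fgg was the 1 gene below an unadjusted p of 0.05, and the share of all genes below that p was not counted. The likelihood ratio test, DESeq2 and limma voom called none either. Fgg had 23.8 ± 5.05 CPM (SD, n = 3) in basal ducts and 6.17 ± 5.19 CPM (SD, n = 3) in basal TEBs, a log2 fold change of -1.91 (SE 0.71, FDR = 0.248). Its lowest value came from basal TEB replicate 1, and without that library the log2 fold change was -1.37 (FDR = 0.0891). Without that library and luminal duct replicate 3, the libraries highest in mitochondrial counts, it was -1.37 with an FDR of 0.0338.

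Upk1b, the basal uroplakin, had 26.7 ± 5.15 CPM (SD, n = 3) in basal ducts and 17 ± 5.46 CPM (SD, n = 3) in basal TEBs, a log2 fold change of -0.65 (SE 0.77, FDR = 0.757). The other 6 genes had log2 fold changes from -0.73 (Muc1) to 1.01 (Upk3a) in basal cells at levels of a few CPM, with an FDR of 0.47 or more. Upk2 held 30 and 24 counts in all in basal ducts and TEBs, and Muc1 held 115 and 73. At such counts the lack of a call does not show that levels were equal. The sign of 5 of these 6 genes (Upk1a, Upk2, Upk3a, Fgb and Dmbt1) turned when 1 library was left out.

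The low basal values of the luminal genes were set beside those of luminal markers. The median luminal marker stood at 2.16% of its luminal level in basal duct libraries and at 1.31% in basal TEB libraries. Upk3a stood at 0.496% and 0.218%, Fgb at 0.537% and 0.264%, Upk2 at 0.581% and 0.721%, and Dmbt1 at 0.112% and 0.689%, all below that median on average over the 3 libraries. A low basal share was built into the choice of Upk3a, Fgb and Dmbt1, so it is no result about them. The averages of the markers ran from 0.493% to 29.2% in ducts and from 0.311% to 58.1% in TEBs. Muc1, at 3.24% and 4.95%, lay above the median marker, though its basal duct value came almost wholly from replicate 3 (9.64%). Fgg stood at 4.16%, 3.89% and 2.73% in the 3 basal duct libraries, where the median marker stood at 2.5%, 2.41% and 1.99%. In the basal TEB libraries Fgg stood at 0.0229%, 1.24% and 1.18%, and the median marker at 1.37%, 1.21% and 0.804%. Fgg was thus above the median marker of the same library in all but basal TEB replicate 1. In basal ducts Fgb stood at 0.228%, 0.0164% and 1.37% in the same order of libraries. Fgb over Fgg was 0.0384, 0.00296 and 0.352 in basal ducts, below the 0.673 of the lower luminal duct library in each case. Whether luminal cells in the basal gate contributed to these values was not tested.

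**Figure D5:**
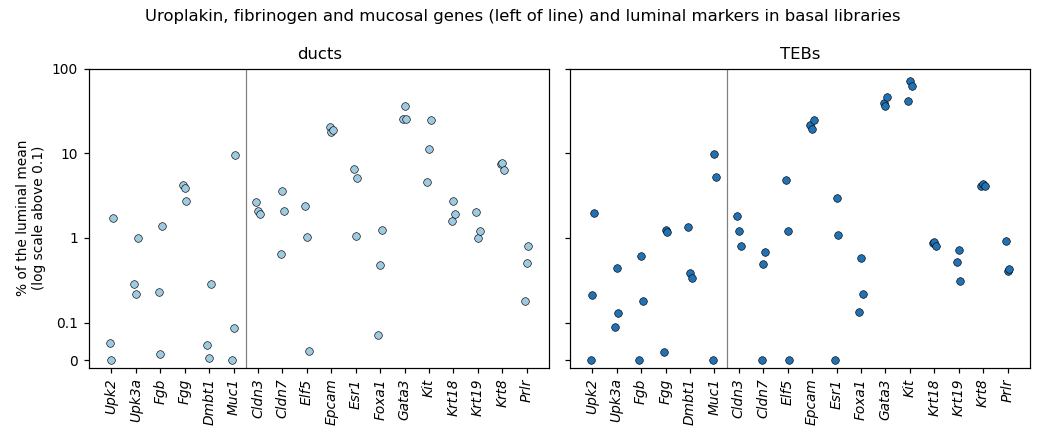
Each point is the level of a gene in a basal library as a percentage of its mean in luminal libraries of the same structure (log scale above 0.1), for 6 of the 10 genes left of the line and 12 luminal markers right of it. Upk3a, Fgb and Dmbt1, chosen for their luminal restriction, lie at or below 1.37% in every basal library. Fgg lies between 2.73% and 4.16% in basal ducts and at or below 1.24% in basal TEBs.

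Genes of related function, from 8 lists that hold 184 genes, were described in the same fits; 138 of them were tested. Against the background, 9.71% of all genes tested were higher and 12.6% lower in luminal than basal cells of ducts, and 11.8% higher and 13.2% lower in TEBs. Of 17 tested urothelial differentiation genes, 12 were higher and 1 (Krt20) lower in luminal duct cells. In luminal TEB cells 11 were higher and none lower. The higher ones include Krt19 and Gata3, which are also among the luminal markers used above. Psca and Gsdmc of this list were too low to test. These counts therefore do not separate urothelial from general luminal genes. Krt7 and Krt19, simple epithelial keratins, had 1108 ± 173 and 4465 ± 396 CPM (SD, n = 3) in luminal TEBs against 3.95 ± 2.66 and 23.1 ± 9.26 CPM in basal TEBs.

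Tetraspanins, the family of Upk1a and Upk1b, were divided between the cell types. Of 24 tested, 4 were higher in luminal and 6 in basal cells of ducts, and 6 in each cell type in TEBs. Tspan13 was luminal, at 383 ± 95.2 CPM in luminal and 35.6 ± 24 CPM in basal TEBs.

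Of 23 tested coagulation and fibrinolysis genes, 3 were higher and 7 lower in luminal duct cells and 5 were higher and 8 lower in luminal TEB cells. F3, which encodes tissue factor, the initiator of coagulation, had 322 ± 53.5 CPM in luminal TEBs and 21.5 ± 9.25 CPM in basal TEBs. Proc, which encodes protein C, an anticoagulant zymogen made in the liver, had 62.8 ± 22.6 CPM in luminal ducts and 33 ± 1.69 CPM in luminal TEBs against 0.124 ± 0.182 and 0.502 ± 0.729 CPM in the basal groups. Plaur, the urokinase receptor, was called in TEBs, at 47.6 ± 4.91 against 1.86 ± 1.71 CPM, and missed the threshold in ducts (FDR = 0.207 by edgeR).

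Of 15 tested acute phase and plasma protein genes, Hp was the 1 gene higher in luminal cells of either structure and Lcn2 the 1 gene lower. Hp, which encodes haptoglobin, had 105 ± 42.8 CPM in luminal ducts and 42.4 ± 19.6 CPM in luminal TEBs against 0.305 ± 0.237 and 0.315 ± 0.278 CPM in basal ducts and TEBs. The other 13 were not called between the cell types. Of the 14 tested genes of IL-6 family receptors, STAT3 and liver-type regulators, 2 were higher and 5 lower in luminal duct cells, and 5 were higher and 3 lower in luminal TEB cells. Cebpb, a C/EBP factor of the acute phase response, was among the lower ones in both structures, at 50 ± 5.69 CPM in luminal and 157 ± 5.39 CPM in basal TEBs.

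Of 12 tested mucins, 5 were higher in luminal cells of ducts and 4 in those of TEBs, and none was lower. Cd164, a sialomucin, had 2872 ± 1072 CPM (SD, n = 2) in luminal ducts and 293 ± 15.1 CPM in basal ducts. Of 18 tested mucosal defence and secretory glycoprotein genes, 8 were higher and 2 lower in luminal duct cells and 10 higher and 1 lower in luminal TEB cells. Of 17 tested enzymes of mucin O-glycosylation, 3 were higher and 5 lower in luminal duct cells and 2 higher and 5 lower in luminal TEB cells.

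Between luminal TEBs and ducts, 6 of the 138 listed genes passed, beside 0.639% of all genes called higher and 0.771% called lower. The lists were chosen with earlier results of these data known, so the count is a description. F2r, the thrombin receptor, rose from 0.246 ± 0.232 to 2.63 ± 0.3 CPM (log2 fold change 3.29, FDR = 0.0284). F2r was higher in basal cells, at 37.3 and 34.1 CPM in ducts and TEBs, and held 20 counts in all in luminal ducts. Galnt10, which starts mucin-type O-glycans, rose from 13.8 ± 0.401 to 34.8 ± 4.24 CPM (log2 fold change 1.33, FDR = 0.0263). Muc13, a transmembrane mucin, fell from 80.5 ± 32.3 to 6.55 ± 1.57 CPM (log2 fold change -3.62, FDR = 0.018). Gata3, a luminal transcription factor, fell from 373 ± 56.6 to 159 ± 29.4 CPM (log2 fold change -1.23, FDR = 0.0241). St3gal1, a sialyltransferase that caps mucin O-glycans, and Trf, which encodes transferrin, fell with log2 fold changes of -1.52 and -1.70 (FDR = 0.0324 and 0.0378). These calls are by edgeR's quasi-likelihood test, and 0, 1 and 0 of the listed genes passed without luminal TEB replicates 1, 2 and 3, while 10 passed without luminal duct replicate 1. With library size alone as the scaling none of the 6 genes kept its call, with the luminal libraries fitted alone F2r and Trf lost theirs, and by limma voom F2r and Galnt10 did. Without the 2 libraries highest in mitochondrial counts the call of Gata3 was lost (log2 fold change -1.06, FDR = 0.078).

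In basal cells 8 listed genes fell from ducts to TEBs and none rose. Socs3 (log2 fold change -2.10, FDR = 0.00225), Il6st (-1.20, FDR = 0.00628), Lifr (-1.44, FDR = 0.00927) and Cebpd (-2.56, FDR = 0.00891) belong to the list of IL-6 family receptors, STAT3 and liver-type regulators, in which 4 of 14 tested genes fell by edgeR, beside the 1.16% of all genes tested that were lower in basal TEBs. Il6st and Lifr encode receptor chains of the family and Cebpd a C/EBP factor, and Il6st was named after its values were seen, to complete the count. Socs3, a feedback inhibitor of IL-6 family signalling, had 1024 ± 112 CPM in basal ducts and 239 ± 75.8 CPM in basal TEBs. Cp, Trf, Cd151 and Slpi also fell, with log2 fold changes of -3.42, -2.60, -0.67 and -8.41 and an FDR of 0.00692, 0.00325, 0.0406 and 0.000917. Cp, Trf and Slpi were called under all 23 alternatives, whereas Cd151, a tetraspanin, was called under 10 of the 23 and missed the threshold without the libraries highest in mitochondrial counts (log2 fold change -0.63, FDR = 0.0607). Slpi, a secreted protease inhibitor of mucosa, had 176 ± 43.3 CPM in basal ducts and 0.437 ± 0.596 CPM in basal TEBs. Without basal TEB replicate 2 the list genes called numbered 13, and without replicate 3 they numbered 5.

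The genes with the profile most like each of 4 members over the 11 libraries were ranked by the root mean square difference of centred log2 CPM. For Upk3a these were Smim38 (0.75), Aldh3b2 (0.79) and Ctse (0.88), and for Fgb they were Itih2 (1.11), Smim38 (1.16) and Ccbe1 (1.23). Smim38 had 73.2 ± 12.9 CPM in luminal ducts and 145 ± 24.5 CPM in luminal TEBs. For Dmbt1 the nearest were Fxyd2 (0.95), Rasgrf1 (1.16) and Cyp3a57 (1.30). Fxyd2, which encodes a regulatory subunit of the sodium pump, had 164 ± 14.5 CPM in luminal ducts and 13.7 ± 5.02 CPM in luminal TEBs. For Muc1 they were Sptlc3 (0.87), Slc46a3 (0.91) and Prr15 (0.97). Over the 5 luminal libraries alone, the genes nearest to Upk3a were Ttk (0.13), Fgb (0.15) and Mtmr11 (0.17) on the same scale. Those nearest to Fgb were Sdc1 (0.10), Ttk (0.11) and Golim4 (0.13). These likenesses are descriptions, since the points share libraries and the basal values are near the limit of detection.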

How the data were processed

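RNA of sorted mouse mammary cells (about 10 ng per library) was prepared with the TruSeq RNA v2 kit, which does not mark strand, and sequenced as 80 bp paired-end reads. Rsubread served the authors for alignment (genome mm10) and for assigning read pairs to Entrez genes of its supplied RefSeq annotation (featureCounts per the labels), and the deposited values are raw read counts per gene, with gene lengths. Groups came from the sample titles. Symbols were found for 25275 of the 27179 gene identifiers, and positions and promoters came from RefSeq tables of GRCm38.p6, the same build.

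From the counts, filterByExpr (minimum count 10, minimum total 15) kept 17370 genes, TMM set the scaling, and edgeR 4.0.16 quasi-likelihood tests in a model of 4 groups over all 11 libraries were adjusted by Benjamini-Hochberg (FDR 0.05). SEs were taken from the fold change (log2) and its F statistic, a level is CPM after TMM, and no fold change is given where a group held 3 counts or fewer in all. Levels between genes used the deposited lengths. Fits were checked on simulated counts with a smaller spread than these data and larger changes than the members had between luminal TEBs and ducts. The check therefore does not measure the power of the tests reported here.

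Named genes were the 10 members; from each list the 3 with the highest luminal level and up to 3 called between TEB and duct in each cell type; the 3 most like Upk3a, Fgb, Dmbt1 and Muc1 (prior count 2, mean luminal CPM of at least 5); and neighbouring genes. Il6st, and the genes nearest to Upk3a and Fgb over the luminal libraries alone, were named outside this rule. Of 186 list entries, 5 symbols were not matched. The members and lists were chosen with earlier results of these data known. Replicate numbers were not used as pairs. Alternatives used DESeq2 1.42.0, limma 3.58.1, other scalings, filters and sets of libraries. Protein sequences were not analysed here. The authors discarded 1 luminal duct sample for low cell numbers.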

Additional observations from a re-analysis of the deposited data

How the results depend on the processing

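Over 23 alternatives, no luminal TEB against duct fold change of Upk3a, Fgb, Dmbt1, Muc1, Upk2 or Upk1a changed sign; Fgg ran from -0.18 to 0.70 (log2) when 1 library was left out, the former without luminal duct replicate 1. The FDR ran from 6.33e-05 to 0.313 for Upk3a, 0.00316 to 0.692 for Fgb and 0.000537 to 0.464 for Dmbt1, for which DESeq2 gave no adjusted p. In luminal cells 0 members were called, against 2 by the likelihood ratio test, 3 by limma voom and 4 with only the compared groups fitted. In basal cells 0 were called, against 1 without the 2 libraries highest in mitochondrial counts, an alternative chosen after seeing the data. Listed genes called between luminal TEBs and ducts numbered 6, against 0 with library size alone, 13 by the likelihood ratio test, 15 by DESeq2, 11 by limma voom and 14 with only the compared groups, and 0 to 10 when 1 library was left out. In basal cells they numbered 8, against 4, 24, 22 and 16 with library size alone, the likelihood ratio test, DESeq2 and limma voom, and 5 to 13 when 1 library was left out; the causes were not tested. Between luminal and basal cells the counts of 63 and 66 stayed within 53 to 78 and 55 to 77. All genes called ran from 10 to 1305 (245 reported) for luminal TEBs against ducts and from 57 to 874 (230 reported) for basal ones. Library size alone moved the median of all genes by 0.38 in luminal and -0.13 in basal TEBs against ducts, and by -0.11 in ducts and 0.39 in TEBs for luminal against basal cells.

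Signs turned in basal TEBs against ducts as follows (log2). Upk1a gave 0.62 by limma voom and 0.54 without the 2 libraries highest in mitochondrial counts, and -0.84 to 1.45 when 1 library was left out. Upk2 gave 0.77 by limma voom, 0.09 with the replicate block and 0.33 without those 2 libraries, and -0.70 to 0.39 when 1 was left out. Dmbt1 gave -0.19 with library size alone, -0.65 without those 2 libraries, and -0.66 to 2.37 when 1 was left out. Muc1 gave 1.56 by limma voom, while Upk3a ran from -0.06 to 1.97 and Fgb from -0.53 to 3.02 when 1 was left out, the lower values without basal TEB replicate 2 and the higher without basal duct replicate 3. For luminal against basal cells in TEBs, Upk1a gave 0.06 with library size alone, 0.86 by limma voom and -0.76 to 0.61 when 1 library was left out.

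Whether replicate numbers mark a shared pool of mice was not stated. Of 15 same-number pairs of libraries, 4 had deviations correlated over 0.1 (r from -0.068 to 0.163). The median r was 0.069 for same-number pairs and -0.027 for other pairs, which does not settle whether the samples are paired. The replicate block called 0 members in either cell type, and with it the luminal calls of F2r, Galnt10, Gata3 and St3gal1 and the basal call of Cd151 were lost. Upk2 and Muc1 had no basal fold change without the single library that held most of their counts. Comparison of protein sequences was not run. Motifs counted on the given strand only left STAT in Fga and Fgb, C/EBP in Fga and Upk3b, the nuclear receptor site in Fgg and Upk3b, and the TATA box in Muc1. With a prior count of 0.5, none of the 3 genes nearest Upk3a were those named, and with 5 Smim38 was shared. Precision for Fga, Upk1a and Upk3b is limited by counts at or near 0, and for luminal ducts by 2 libraries.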
